A study of Mus musculus with 12 samples.

Results

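The peaks described here are the open-chromatin regions annotated to 10 genes of mitochondrial biogenesis and mitochondrial metabolism: Esrra, Ppara, Ppargc1a, Ppargc1b, Nrf1, Tfam, Cycs, Got1, Got2 and Ucp2. They were selected by the gene name deposited beside each peak, which gave 147 of the 281974 peaks in 3 tables: 53 of 91770 in microglia, 66 of 107627 in NeuN+ and 28 of 82577 in Olig2+ nuclei. The genes themselves were chosen from results of these data, since a peak in intron 1 of Got1 had been among those that differed most between SgshKO and WT microglia. For that reason the genotype difference in microglia is given for these genes as a description, with no p-value printed and nothing read from one, and the tests below are those in NeuN+ nuclei, in Olig2+ nuclei and between sorts. A peak within 1000 bp of the annotated start site is called a start-site peak (44 of the 147), and the other 103 are called distal. At that limit, the Got1 peak at 940 bp in microglia (70.9 and 65.2 normalized tags in WT, 85.7 and 71.5 in SgshKO) fell just inside and the Got2 peak at 1041 bp (70.0 and 60.2 in WT, 67.5 and 60.3 in SgshKO) just outside. Distances are those deposited with the peaks, negative upstream of the start site.

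The assay was ATAC-seq, which reads open chromatin from the places where a transposase can reach the DNA, in forebrain cells and nuclei of C57BL/6 mice aged 4 months. Wild-type (WT) mice were compared with SgshKO mice, which lack Sgsh, the lysosomal sulfamidase that removes sulfate groups during heparan sulfate breakdown; the knockout allele is not given in the sources used here. Microglia were sorted as live CD11b+, CD45low and CX3CR1+ cells, whereas NeuN+ (neuronal) nuclei and Olig2+ (oligodendrocyte lineage) nuclei came from lightly formaldehyde-fixed tissue and were negative for PU.1 and for the marker of the other sort. Each of the 6 combinations of sort and genotype had 2 libraries, and as nothing states that these came from separate animals, p-values measure only the spread between these libraries.

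Estrogen-related receptor alpha, encoded by Esrra, is an orphan nuclear receptor that acts with the coactivators PGC-1 alpha (Ppargc1a) and PGC-1 beta (Ppargc1b) on genes of oxidative metabolism. Among their targets are nuclear respiratory factor 1 (Nrf1) and, through it, Tfam, the factor that packages and transcribes mitochondrial DNA. PPAR alpha (Ppara) is a fatty acid-activated receptor that uses the same coactivators. Cytochrome c (Cycs) carries electrons in the respiratory chain, the aspartate aminotransferases Got1 (cytosol) and Got2 (mitochondria) form part of the malate-aspartate shuttle, and Ucp2 is an inner-membrane carrier that is abundant in macrophage-lineage cells.

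The promoters of Esrra, Tfam, Got1 and Ucp2 are shown because they held the 4 strongest start-site peaks of the group in WT microglia. Each is the stretch just upstream of the RefSeq start site in GRCm38.p6, written 5′ to 3′ on the strand of the gene. Capitals mark exact matches, on either strand, to the NRF1 core GCGCATGC, the ETS-factor core CCGGAAG, the estrogen-related receptor half-site AAGGTCA or the GC box GGGCGG.
Esrra, chr19:6921809-6922058, minus strand: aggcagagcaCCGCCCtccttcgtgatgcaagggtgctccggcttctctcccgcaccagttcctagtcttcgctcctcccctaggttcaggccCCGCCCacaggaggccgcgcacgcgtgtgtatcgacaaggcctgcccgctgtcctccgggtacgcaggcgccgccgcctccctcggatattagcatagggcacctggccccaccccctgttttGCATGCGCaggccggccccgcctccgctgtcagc
Tfam, chr10:71238045-71238294, minus strand: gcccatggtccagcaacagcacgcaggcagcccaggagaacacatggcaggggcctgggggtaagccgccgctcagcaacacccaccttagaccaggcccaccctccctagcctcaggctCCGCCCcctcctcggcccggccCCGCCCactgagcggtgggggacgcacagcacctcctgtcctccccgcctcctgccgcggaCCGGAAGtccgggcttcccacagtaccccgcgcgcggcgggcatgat
Got1, chr19:43524606-43524855, minus strand: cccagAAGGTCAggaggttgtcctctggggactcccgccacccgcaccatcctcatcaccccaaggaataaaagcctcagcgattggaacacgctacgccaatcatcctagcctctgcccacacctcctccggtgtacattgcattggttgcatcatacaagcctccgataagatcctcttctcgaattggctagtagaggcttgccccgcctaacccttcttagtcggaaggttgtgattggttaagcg
Ucp2, chr7:100493108-100493357, plus strand: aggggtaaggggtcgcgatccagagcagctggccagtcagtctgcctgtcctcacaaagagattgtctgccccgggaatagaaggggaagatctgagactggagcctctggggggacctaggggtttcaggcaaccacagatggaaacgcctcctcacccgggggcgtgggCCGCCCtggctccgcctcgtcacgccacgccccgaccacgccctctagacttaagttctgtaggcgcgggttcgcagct
The Esrra promoter held 1 NRF1 core, from 34 to 27 bp before the start site, and 2 GC boxes. Tfam held 1 ETS core, from 47 to 41 bp before its start site, and 2 GC boxes, Got1 held 1 receptor half-site from 245 to 239 bp before its start site, and Ucp2 held 1 GC box. The 250 bases printed overlapped the microglial start-site peak over 218 bp at Esrra, 210 bp at Tfam, 223 bp at Got1 and 171 bp at Ucp2. RefSeq promoters were matched for 9 of the 10 genes. The NRF1 core was found in 3 of these 9 (Esrra, Cycs and Ppara) and in 2.26% of the 32851 RefSeq promoters searched over the same length. The receptor half-site was found in Got1 alone of the 9 and in 4.08% of all promoters, the ETS core in Tfam alone and in 6.91%, and the GC box in 5 and in 32.7%. The E-box core CACGTG (6.02% of all promoters) and the PU.1 core GAGGAAGT (2.44%) were in none of the 9. These 9 genes gave 10 promoter stretches, of which 8 lay above the median GC content of all promoters, 52.4%. The shares over all promoters were not matched for GC content, so they are no measure of enrichment. The Cycs stretch overlapped no Cycs peak in any sort. No motif overlapped another in the 4 sequences, and a match of letters is no measurement of binding.

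Libraries held 10771659 to 19555924 tags, of which 48.7% to 67.4% lay in peaks in microglia, 21.2% to 26.7% in NeuN+ and 30.9% to 31.8% in Olig2+ nuclei. The NeuN+ shares were lower in SgshKO (21.5% and 21.2%) than in WT (26.7% and 25.9%), and the 2 SgshKO microglia libraries differed from each other (67.4% and 53.7%). Over peaks with at least 50 reads in a pair, the squared difference between replicates was 4.85 times counting noise in SgshKO microglia and 1.69 times in WT microglia, against 1.13 to 1.33 times in the nuclei. The peak nearest the start site of Sgsh was present in every library. It held 184 and 162 tags in WT microglia and 257 and 260 in SgshKO. In NeuN+ nuclei it held 34.6 and 22.6 against 9.07 and 13.3 (log2 change -1.27), and in Olig2+ nuclei 65.9 and 74.2 against 60.9 and 69.1. These values do not check the genotype because the deleted part is not given in the sources used here. Start-site peaks were found for 7 of 7 microglia markers in microglia, 7 of 7 neuronal markers in NeuN+ nuclei and 7 of 7 oligodendrocyte lineage markers in Olig2+ nuclei, while of the 7 microglia markers 6 had none in NeuN+ nuclei and 5 none in Olig2+ nuclei (P2ry12, Tmem119, Cx3cr1, Csf1r and C1qa lacked one in both). The microglia markers found there summed to 54.4 and 48.0 tags in WT and 34.2 and 32.4 in SgshKO NeuN+ nuclei, and to 240.2 and 233 against 271 and 284 in Olig2+ nuclei.

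Esrra, the receptor of the group, had the strongest start-site peak of the 10 genes in every sort. In microglia the peak at -186 bp (chromosome 19, 6921841 to 6922148) held 314 and 292 normalized tags (scaled by the authors to a total of 10000000 per library) in the WT libraries and 1072 and 1192 in the SgshKO libraries. Both SgshKO values lay far above both WT values, and the mean was 3.74-fold higher (303 ± 15.2 against 1132 ± 85.0, SD, n = 2). The log2 change on the log2(tags + 1) scale was 1.90 ± 0.24 (SE), and it lay between 1.31 (quantile normalization) and 1.98 over 13 alternatives. The summed start-site tags of 7 microglia markers were 2241 and 1975 in the WT libraries and 2576 and 1966 in SgshKO microglia, and those of the 5 detected oligodendrocyte lineage markers 327 and 285 against 327 and 293. In NeuN+ nuclei the corresponding peak at -160 bp went the other way, from 432 and 407 tags in WT to 237 and 215 in SgshKO. It fell by 0.89 ± 0.08 on the log2 scale (limma, Benjamini-Hochberg adjusted p = 7.5e-07), with no overlap between the genotypes. In sorted bulk nuclei a different mix of nuclei and a different accessibility per nucleus cannot be told apart. In Olig2+ nuclei the peak at -193 bp went from 444 and 463 tags in WT to 334 and 336 in SgshKO, a smaller fall of 0.44 ± 0.07 on the log2 scale (adjusted p = 3.0e-05). The Olig2+ call held in each of the 13 alternative analyses and the NeuN+ call in 11 of 13. The NeuN+ call was lost without SgshKO replicate 1 or 2, when no NeuN+ peak of any gene was called.

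The other Esrra peaks were weak. In microglia the peaks at -852 bp and 511 bp had means of 10.7 and 26.5 tags in WT and 11.2 and 32.9 in SgshKO, and the genotypes overlapped at both. In NeuN+ nuclei a peak at -1268 bp, inside intron 4 of the neighbouring gene Catsperz, rose from 7.36 and 3.39 tags to 10.5 and 12.7 (log2 change 1.05 ± 0.36, adjusted p = 0.036). That call was lost in 5 of 13 alternatives, among them quantile normalization (adjusted p = 0.070). The overlapping Olig2+ peak at -1462 bp went from 20.2 and 18.9 to 25.8 and 26.6 tags (log2 change 0.40 ± 0.23, adjusted p = 0.22). The nearer end of Catsperz lies 278 bp from the microglial Esrra start-site peak, so position alone does not assign those tags to Esrra.

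**Figure D1:**
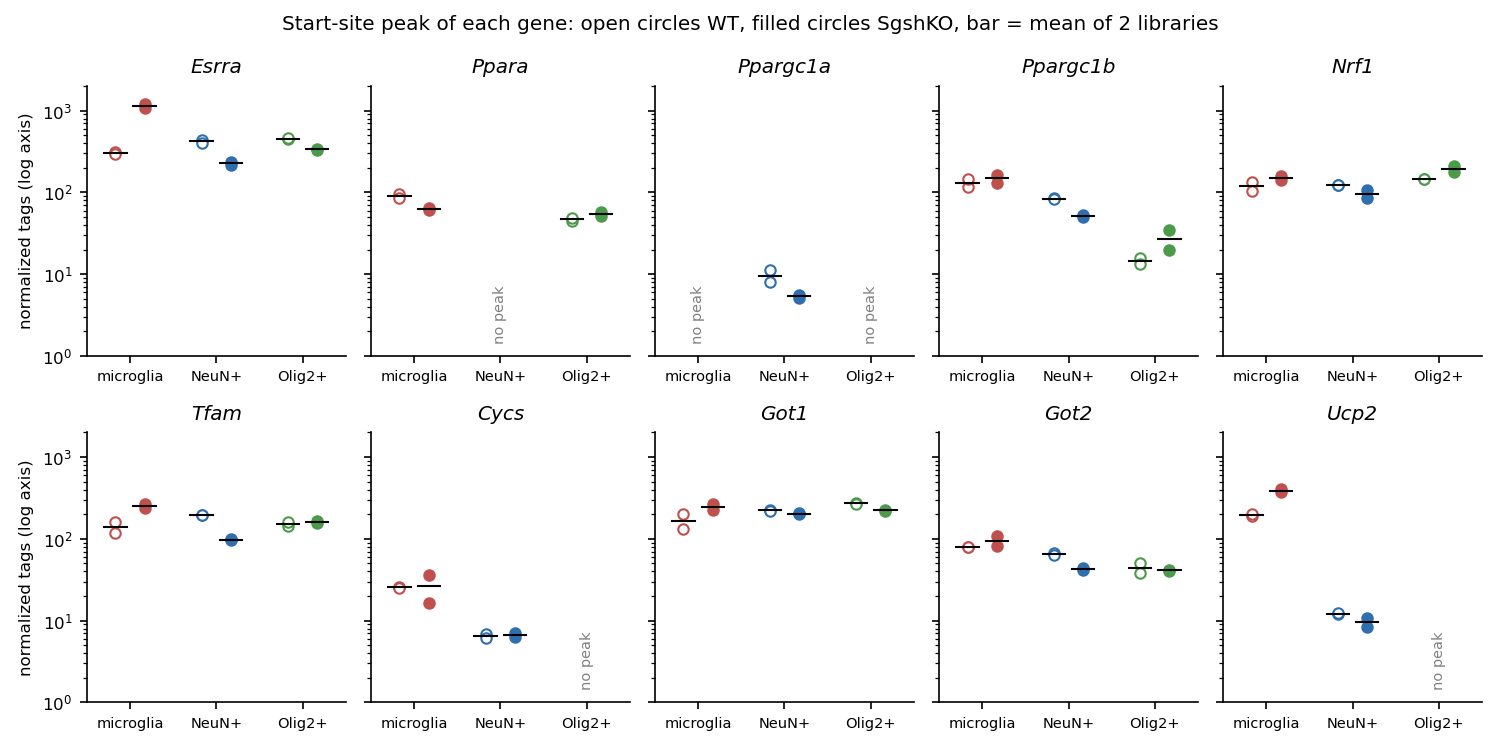
Normalized tags (vertical log axis) in the start-site peak of each gene in each sort; open circles are the 2 WT libraries, filled circles the 2 SgshKO libraries and bars their means. Esrra in SgshKO microglia (1072 and 1192 tags) stands above every other value, while the NeuN+ peaks of Esrra, Tfam, Ppargc1b and Got2 are lower in SgshKO.

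Ppara, the fatty acid-responsive receptor, had 1 peak in microglia, 1 in Olig2+ nuclei and none in NeuN+ nuclei. In microglia its peak at -123 bp held 96.8 and 85.6 tags in WT and 60.6 and 65.0 in SgshKO, so that both SgshKO libraries were lower (log2 change -0.53 ± 0.32). In Olig2+ nuclei the peak at -178 bp held 44.6 and 49.1 tags in WT and 51.0 and 57.8 in SgshKO and did not pass the test (log2 change 0.21 ± 0.17, adjusted p = 0.39).

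The 2 PGC-1 coactivator genes were open in different sorts. Ppargc1a had 12 peaks in NeuN+ nuclei and none in microglia or Olig2+ nuclei. All were weak, the highest of the 12 WT means being 18.4 tags. The peak at -49 bp of one annotated start site held 11.3 and 7.91 tags in WT and 5.58 and 5.08 in SgshKO (log2 change -0.73 ± 0.34, adjusted p = 0.11). The peak at -872 bp of another annotated start site, further upstream, rose from 9.63 and 7.34 tags to 16.1 and 19.1 (log2 change 0.97 ± 0.29, adjusted p = 0.017). The start-site peak at 937 bp held 13.03 and 10.2 tags in WT and 5.58 and 6.35 in SgshKO (log2 change -0.85 ± 0.32, adjusted p = 0.054), so of the 3 start-site peaks the upstream one alone passed the test. Distal peaks at -207981, 119810 and 445561 bp also rose, by log2 changes of 1.10 ± 0.31 (adjusted p = 0.014), 1.22 ± 0.33 (0.011) and 0.95 ± 0.33 (0.038). All 3 are annotated as intergenic, although the one at -207981 bp lies inside the RefSeq span of Ppargc1a. They rest on few reads, at most 26 in any library. The other distal peaks of Ppargc1a were not called.

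Ppargc1b, by contrast, had peaks in all sorts. At the common start-site peak, WT microglia held 118 and 147 tags, WT NeuN+ nuclei 84.4 and 81.9, and WT Olig2+ nuclei 15.6 and 13.3. In SgshKO NeuN+ nuclei this peak (at 32 bp) fell to 50.3 and 52.7 tags (log2 change -0.68 ± 0.14, adjusted p = 0.0021). The intronic peak at 824 bp fell from 42.5 and 43.5 to 26.5 and 21.6 tags (log2 change -0.82 ± 0.20, adjusted p = 0.0054). After quantile normalization neither was called (log2 changes -0.23 and -0.60, adjusted p = 0.22 and 0.061), nor with DESeq2, and the one at 824 bp was also lost with in-peak scaling (-0.53, adjusted p = 0.051). In SgshKO Olig2+ nuclei the start-site peak, at -30 bp, rose to 19.7 and 34.6 tags (log2 change 0.82 ± 0.27, adjusted p = 0.030). The SgshKO libraries there lay well apart: without SgshKO replicate 2 the change was 0.43 and no longer called, and the call was also lost without either WT library. In microglia the 4 start-site peaks did not move together: the one at -9 bp held 165 and 132 tags in SgshKO, overlapping WT, while those at -264, 379 and 814 bp were lower in both SgshKO libraries than in either WT library, with log2 changes of -0.72, -0.91 and -0.31. The start-site region of Ppargc1b also lies inside the non-coding gene Gm52354. A strong distal peak at -1409 bp held 200 and 176 tags in WT microglia and 298 and 127 in SgshKO, so the SgshKO libraries lay on either side of WT.

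Nrf1 encodes the respiratory factor whose core letters appear in the Esrra promoter. Its main start-site peak held 134 and 104 tags in WT and 141 and 160 in SgshKO microglia, a log2 change of 0.34 ± 0.29. In NeuN+ nuclei the same peak (at 53 bp) fell from 125 and 124 to 108 and 84.4 tags (log2 change -0.38 ± 0.13, adjusted p = 0.034), and in Olig2+ nuclei (at 72 bp) it rose from 145 and 144 to 177 and 209 tags (log2 change 0.41 ± 0.10, adjusted p = 0.0059). The NeuN+ fall was smaller than the median of all NeuN+ start-site peaks, was not called in any of the 5 analyses with another scaling or count model, and turned to 0.17 after quantile normalization. Another start site within the gene had a microglial peak at 65 bp with overlapping genotypes (22.5 and 42.4 tags in WT, 48.5 and 15.8 in SgshKO). Distal peaks moved both ways. In microglia 2 weak ones were higher in both SgshKO libraries: at 22817 bp (13.8 and 8.47 to 29.4 and 19.5 tags, log2 change 1.08 ± 0.46) and at 27114 bp (4.32 and 1.69 to 18.2 and 9.28, 1.89 ± 0.55). The latter rested on 5 and 2 reads in WT. Of the distal peaks, the microglial one at -5258 bp was lower in both SgshKO libraries (64.8 and 43.2 against 42.4 and 15.8 tags), and the Olig2+ one at 2825 bp fell from 39.4 and 37.3 to 21.5 and 28.6 tags (log2 change -0.61 ± 0.21, adjusted p = 0.040), a call lost in 7 of 13 alternatives, among them median-of-ratios scaling (adjusted p = 0.062).

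Tfam, like Esrra, was higher in both SgshKO microglia libraries and fell in SgshKO NeuN+ nuclei, but it was not called in Olig2+ nuclei. In microglia the start-site peak at -68 bp (chromosome 10, 71237971 to 71238254) held 159 and 119 tags in WT and 237 and 266 in SgshKO (log2 change 0.87 ± 0.28), with both SgshKO values above WT. In NeuN+ nuclei the peak at -100 bp fell from 198 and 197 to 96.3 and 99.7 tags (log2 change -1.003 ± 0.10, adjusted p = 3.7e-06). In Olig2+ nuclei the peak at -91 bp held 146 and 162 tags in WT and 165 and 158 in SgshKO (log2 change 0.07 ± 0.10, adjusted p = 0.67), so the genotypes overlapped. The NeuN+ call was lost only without SgshKO replicate 1 or 2 among the 13 alternatives. Distal Tfam peaks were few, and none was called in either nuclei sort.

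Cycs had 3 peaks in microglia and 5 in NeuN+ nuclei. Its single start-site peak in each lay downstream of the RefSeq start site and was weak. It held 25.9 and 25.4 tags in WT and 16.5 and 36.2 in SgshKO microglia, and 6.80 and 6.21 against 6.98 and 6.35 in NeuN+ nuclei (log2 change 0.03 ± 0.34, adjusted p = 0.95). The authors' annotation places that peak in the promoter of the neighbouring non-coding gene 5430402O13Rik. At the other end of Cycs, a NeuN+ peak at 3927 bp rose from 3.97 and 8.47 to 14.0 and 15.9 tags (log2 change 1.21 ± 0.34, adjusted p = 0.013), a call lost in 4 of 13 alternatives. Cycs has processed pseudogenes, and how multiply mapped reads were treated is not given in the sources used here.

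Got1, the cytosolic aminotransferase, had the largest genotype difference of the group in microglia. In intron 1, 8081 bp inside the gene (chromosome 19, 43516424 to 43516625), the WT microglia libraries held 5.19 and 0.85 tags (6 reads and 1 read) and the SgshKO libraries 77.9 and 66.8 tags (90 and 72 reads). The region was thus nearly closed in both WT libraries and open in both SgshKO libraries (log2 change 4.43 ± 0.50); this is the value that brought the gene into the set. The change lay between 3.32 and 5.31 over the 13 alternatives. The other 7 microglial Got1 peaks had positive log2 changes from 0.14 to 0.67, and the start-site peak at -89 bp held 201 and 134 tags in WT and 264 and 228 in SgshKO. NeuN+ nuclei had a broad peak that covered 177 of the 202 bp of the microglial region, and there the tags were 17.6 and 17.5 in the WT libraries and 17.5 and 15.2 in SgshKO (log2 change -0.10 ± 0.25, adjusted p = 0.78). No Olig2+ peak overlapped the region.

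At the Got1 start site the direction in NeuN+ nuclei depended on the scaling. The NeuN+ peak at -14 bp held 224 and 222 tags in WT and 200.3 and 206 in SgshKO (log2 change -0.13 ± 0.09, adjusted p = 0.24), and with tags scaled to the in-peak total the change was 0.16; it was positive under each of the 5 other scalings or count models, and after quantile normalization it was called higher (0.44, adjusted p = 0.012). The Olig2+ peak at -88 bp fell from 276 and 268 to 229 and 218 tags (log2 change -0.28 ± 0.08, adjusted p = 0.016), a call lost after median-of-ratios scaling (0.059). A distal peak upstream (at -5735 bp in microglia) was found in all 3 sorts. It fell in NeuN+ nuclei from 29.5 and 34.5 to 16.8 and 18.4 tags (log2 change -0.82 ± 0.22, adjusted p = 0.010) and in Olig2+ nuclei from 11.9 and 15.9 to 6.15 and 7.31 tags (-0.94 ± 0.32, adjusted p = 0.038). The NeuN+ call was lost with in-peak scaling (adjusted p = 0.081) and the Olig2+ call after median-of-ratios scaling (adjusted p = 0.051). In microglia it held 65.7 and 51.7 tags in WT and 69.3 and 59.4 in SgshKO, with overlap. A weak NeuN+ peak at 10999 bp, in intron 2 of Got1, fell from 11.9 and 12.4 to 6.28 and 3.81 tags (log2 change -1.15 ± 0.34, adjusted p = 0.016). The other called falls, at 32826 and 33177 bp in NeuN+ nuclei (log2 changes -1.68 ± 0.39 and -1.53 ± 0.33, adjusted p = 0.0043 and 0.0022) and at 28500 bp in Olig2+ nuclei (-1.36 ± 0.36, adjusted p = 0.0085), lie inside the neighbouring gene Cnnm1, a putative metal transporter, and carry the name of Got1 only as the nearest start site.

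**Figure D2:**
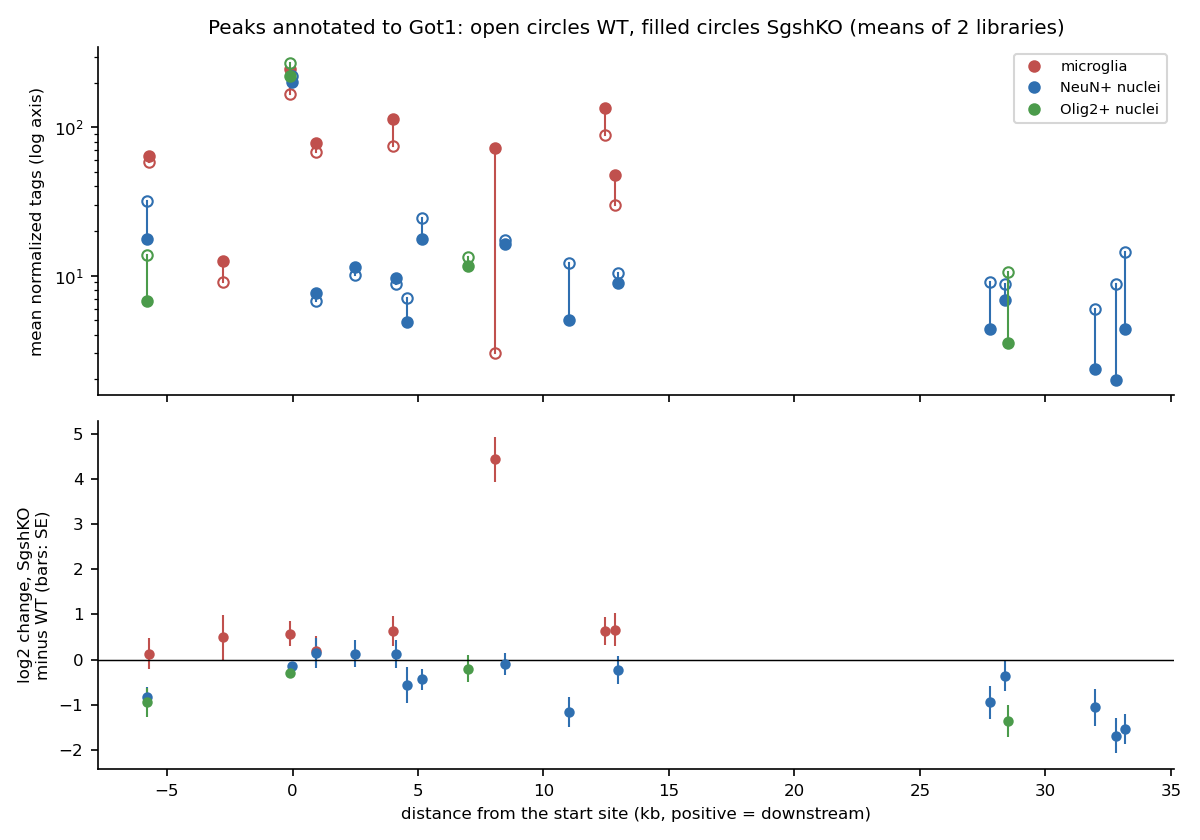
Mean normalized tags (upper panel, log axis) and log2 change with SE (lower panel) of each peak annotated to Got1 against its distance from the start site in kb, by sort. The microglial peak about 8 kb inside the gene is the one point far from 0 on the positive side, at 4.43.

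Got2, the mitochondrial partner enzyme, fell at both of its NeuN+ start-site peaks. The peak at -79 bp went from 66.8 and 62.7 to 43.97 and 41.3 tags (log2 change -0.59 ± 0.16, adjusted p = 0.0099) and the one at 516 bp from 56.1 and 42.9 to 27.2 and 33.0 (-0.69 ± 0.19, adjusted p = 0.013). Both were near the median of all NeuN+ start-site peaks, -0.53. The first was not called with in-peak scaling (log2 change -0.30, adjusted p = 0.17), median-of-ratios scaling (-0.38, adjusted p = 0.080) or quantile normalization (-0.22, adjusted p = 0.29). With edgeR or DESeq2 it was not called either. In Olig2+ nuclei the same peaks had log2 changes of -0.09 and -0.08 and were not called. In microglia the peak at -102 bp held 79.5 and 78.8 tags in WT and 107 and 80.8 in SgshKO (log2 change 0.23 ± 0.31). The microglial start-site peak at 536 bp was lower in both SgshKO libraries, with 64.8 and 61.0 tags in WT and 32.0 and 59.4 in SgshKO (-0.52 ± 0.36). Distal Got2 peaks reach as far as -1501501 bp because the region has few genes. Of these, peaks at -1458475, -560476 and -263901 bp rose in NeuN+ nuclei (log2 changes 1.70 ± 0.34, 2.19 ± 0.52 and 0.76 ± 0.20). The one at -560476 bp rested on 5 and 0 reads in WT and 11 and 13 in SgshKO, and its change lay between 1.05 and 3.16 over the alternatives. In intron 1 of Got2 itself, the NeuN+ peak at 6568 bp fell from 16.4 and 13.6 to 7.68 and 8.25 tags (log2 change -0.83 ± 0.29, adjusted p = 0.040). Of the distal peaks in Olig2+ nuclei, 1 rose (at -504849 bp, 0.54 ± 0.15, adjusted p = 0.0098) and 1 fell (at -1115896 bp, -0.63 ± 0.22, adjusted p = 0.044).

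Ucp2 had 18 peaks in microglia, 4 in NeuN+ and none in Olig2+ nuclei. Its start-site peak at -10 bp (chromosome 7, 100493187 to 100493510) held 192 and 202 tags in WT microglia and 403 and 376 in SgshKO, far above WT in both libraries (log2 change 0.98 ± 0.26). The strongest peak of the locus lay in intron 2, at 2566 bp, with 691 and 617 tags in WT and 722 and 694 in SgshKO (log2 change 0.12 ± 0.24). The peak at -10 bp therefore differed between genotypes while the stronger intronic peak barely did. After quantile normalization the change at -10 bp was 0.54. The start-site peak at 360 bp went the other way, from 55.3 and 58.5 tags in WT to 42.4 and 44.6 in SgshKO (log2 change -0.38 ± 0.35). The genotypes overlapped at the start-site peak at 657 bp (log2 change 0.0072). Of the distal peaks, the one at -5845 bp had the lowest change, from 28.5 and 36.4 to 16.5 and 9.28 tags (log2 change -1.31 ± 0.44). The one at 7131 bp held 35.4 and 31.3 tags in WT and 49.4 and 41.8 in SgshKO. In NeuN+ nuclei the start-site peak at -262 bp held 11.9 and 12.4 tags in WT and 8.38 and 10.8 in SgshKO, and the intronic peak at 2556 bp held 43.1 and 27.7 against 39.8 and 31.8. Neither passed the test (adjusted p = 0.42 and 0.90).

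**Figure D3:**
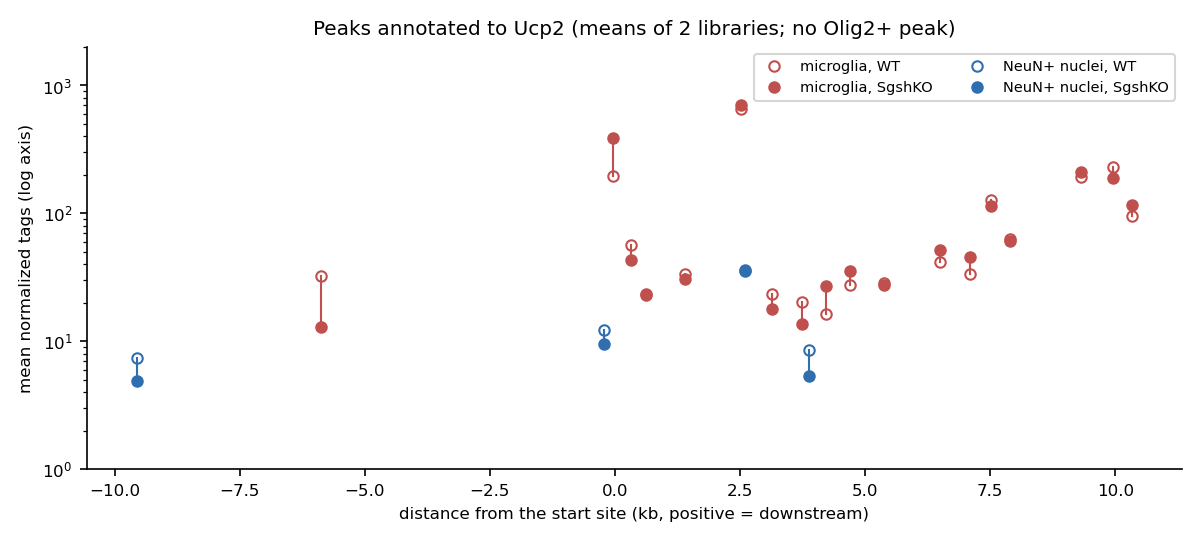
Mean normalized tags (log axis) of the peaks annotated to Ucp2 against distance from the start site in kb, in microglia and NeuN+ nuclei; open circles are WT and filled circles SgshKO. The microglial start-site peak at -10 bp separates clearly by genotype (197 against 389 tags). The peak at 2566 bp, the highest of the locus, differs little (654 against 708 tags).

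The genotype fit put 5 of 53 microglial peaks of the group past its threshold, all 5 higher in SgshKO, in the contrast from which the genes were chosen (Got1 at 8081 bp is one of them), so nothing is read from this count. Of all microglial peaks 5.05% were past it higher and 2.33% lower, and of start-site peaks 8.59% and 1.2%. Lower peaks appeared under other settings: in-peak scaling gave 5 higher and 4 lower, median-of-ratios scaling 6 and 1, and the count was 6 and 3 after quantile normalization, 7 and 2 with edgeR and 6 and 2 with a replicate block. In NeuN+ nuclei 21 of 66 peaks were called, 9 higher and 12 lower, where 10.2% of all peaks were called higher and 19.6% lower. That balance turned under every other scaling: in-peak scaling gave 14 higher and 5 lower, median-of-ratios scaling 11 and 8, quantile normalization 8 and 4 and edgeR 12 and 8, while DESeq2 called 1 higher and 2 lower. Over all NeuN+ peaks, 11008 of 32105 calls were higher, and 18962 of 28496 with in-peak scaling. Among the 15 NeuN+ start-site peaks, 1 was called higher and 7 lower, and the shares over all start-site peaks were 1.74% and 44.9%, so the falls were about as frequent as over all start-site peaks. In Olig2+ nuclei 9 of 28 peaks were called, 3 higher and 6 lower, where 8.17% of all peaks were called higher and 11.7% lower. With median-of-ratios scaling 3 were called higher and 2 lower, and with quantile normalization or edgeR 3 and 3. Of the 9 Olig2+ start-site peaks 2 were called higher and 2 lower, against 12.7% and 7.56% of all start-site peaks. The NeuN+ count of 21 became 8 without WT replicate 1, 9 without WT replicate 2 and 0 without either SgshKO library, when the smallest adjusted p of any peak was 0.126 or 0.129 and 22 of these peaks had an unadjusted p under 0.05. The Olig2+ count of 9 became 1 without WT replicate 1, 2 without WT replicate 2 and 4 without SgshKO replicate 2. The microglial count of 5 became 2 without either WT library, 9 with SgshKO replicate 1 left out (5 higher, 4 lower) and 13 with SgshKO replicate 2 left out (9 higher, 4 lower).

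The median log2 change of the group's start-site peaks was 0.03 in microglia, -0.59 in NeuN+ and 0.07 in Olig2+ nuclei. Over all start-site peaks it was 0.03, -0.53 and 0.05. Measured from those medians, the Esrra peak stood at 1.87 in microglia, -0.36 in NeuN+ and -0.48 in Olig2+ nuclei, and the Tfam peak at 0.84, -0.47 and 0.02. Neuronal marker genes moved with the NeuN+ falls: the summed start-site tags of 7 of 7 neuronal markers were 770 and 689 in the WT libraries and 392 and 418 in SgshKO, and those of the 4 detected oligodendrocyte lineage markers 140 and 120 against 67.0 and 71.7. The part of these marker shifts and of the lower in-peak share in the falls was not tested. With tags scaled to the in-peak total the NeuN+ changes were -0.59 at Esrra (adjusted p = 2.2e-06) and -0.71 at Tfam (adjusted p = 2.1e-05), so both calls held, and the NeuN+ median of all peaks moved from -0.23 to 0.05. After quantile normalization they were smaller, -0.34 at Esrra (adjusted p = 0.015) and -0.44 at Tfam (adjusted p = 0.020).

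**Figure D4:**
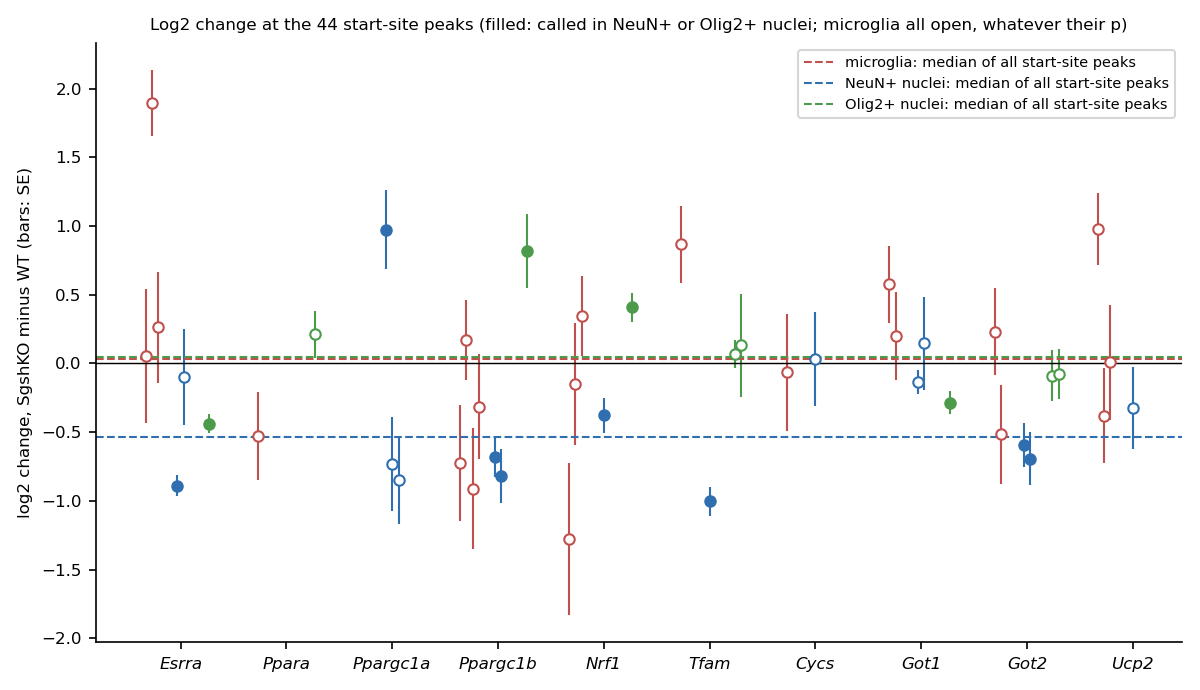
Log2 change (SgshKO minus WT) with SE at the 44 start-site peaks, by gene and sort; dashed lines are the medians of all start-site peaks of a sort, and filled points passed the test in NeuN+ or Olig2+ nuclei (microglial points, whose contrast chose the genes, are all drawn open whatever their p). Esrra at -186 bp in microglia lies highest at 1.90. The NeuN+ points of Esrra at -160 bp and of Tfam lie below the NeuN+ median of -0.53. So do those of Ppargc1b and Got2 and those of Ppargc1a at -49 and 937 bp. The NeuN+ point of Esrra at 870 bp (-0.10) lies above it.

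Sorts were compared at 16761 peaks that overlap one to one in the 3 tables, among which 9 belong to the group: the start-site peaks of Tfam, Ppargc1b, Esrra, Got1, Nrf1 and Got2 (2 peaks), and distal peaks of Got1 and Got2. The clearest difference between WT sorts was at Ppargc1b, which was higher than in Olig2+ nuclei by 3.10 ± 0.23 on the log2 scale in microglia (adjusted p = 4.8e-11) and by 2.45 ± 0.23 in NeuN+ nuclei (adjusted p = 6.7e-09), and these calls held in all 18 alternatives. The Got1 peak at -5735 bp was also higher in microglia than in Olig2+ nuclei, by 2.01 ± 0.27 (adjusted p = 7.9e-07), and in NeuN+ nuclei than in Olig2+ nuclei by 1.15 ± 0.27 (adjusted p = 0.0011), again in all 18 alternatives. Esrra, by contrast, was lower in WT microglia than in WT NeuN+ nuclei (log2 difference -0.47 ± 0.12, adjusted p = 0.0011) and than in WT Olig2+ nuclei (-0.58 ± 0.12, adjusted p = 0.00012), in all 18 alternatives. The difference between its NeuN+ and Olig2+ levels did not pass the test (-0.11 ± 0.12, adjusted p = 0.44), whose spread is pooled over all 6 groups. The WT tags themselves did not overlap (432 and 407 against 444 and 463). After quantile normalization NeuN+ nuclei were higher by 0.45 (adjusted p = 0.00066). Tfam was lower in microglia than in NeuN+ nuclei (-0.52 ± 0.15, adjusted p = 0.0039), and Got1 at -89 bp was lower in microglia than in Olig2+ nuclei (-0.73 ± 0.15, adjusted p = 0.00023). The Got2 peak at -102 bp was higher in microglia than in Olig2+ nuclei (0.83 ± 0.20, adjusted p = 0.00075). Nrf1 did not pass the test in any of the 3 WT comparisons, but after median-of-ratios scaling it was lower in microglia than in NeuN+ nuclei (-0.57, adjusted p = 0.0025) and than in Olig2+ nuclei (-0.65, adjusted p = 0.00085). In all, 5 of the 9 peaks were called between microglia and NeuN+ nuclei, 6 between microglia and Olig2+ nuclei and 5 between NeuN+ and Olig2+ nuclei, where 65.8%, 67.2% and 49.5% of the common peaks were called. Between microglia and NeuN+ nuclei 2 of the 5 were higher in microglia, and 0 of 5 under each of the 3 other scalings. Between microglia and Olig2+ nuclei 4 were higher and 2 lower in microglia, which became 3 and 4 with median-of-ratios scaling and 3 and 3 with the other scalings. The count of 5 between microglia and NeuN+ nuclei became 2 without WT microglia replicate 2 or WT NeuN+ replicate 1 and 3 without WT NeuN+ replicate 2. The count of 5 between NeuN+ and Olig2+ nuclei became 2 or 3 without a WT library of either sort. Microglia were live cells and the nuclei fixed, so sort and preparation cannot be told apart in the comparisons with microglia.

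The genotype effect differed between NeuN+ and Olig2+ nuclei, which were prepared alike, at 4 of the 9 peaks, where 31.7% of common peaks were called. The NeuN+ effect minus the Olig2+ effect was -1.07 ± 0.21 on the log2 scale at Tfam (adjusted p = 0.00078), -1.50 ± 0.32 at Ppargc1b (adjusted p = 0.0015), -0.78 ± 0.23 at Nrf1 (adjusted p = 0.012) and -0.45 ± 0.16 at Esrra (adjusted p = 0.037). All 4 differences had the sign of the median over the common peaks, -0.50, and of that over the start-site peaks among them, -0.63. The Esrra difference was smaller in size than both medians. After median-of-ratios scaling the Esrra difference was 0.00021 (adjusted p = 0.999), that at Nrf1 -0.33 (adjusted p = 0.31) and that at Tfam -0.62 (adjusted p = 0.051), while the difference at Ppargc1b was -1.05 and still called (adjusted p = 0.039). Under that scaling the Got1 start-site peak was called in the other direction, with a difference of 0.60 (adjusted p = 0.042), and the 4 calls became 2. They also became 2 without replicate 2 of the SgshKO NeuN+ or of the SgshKO Olig2+ libraries. With common-peak scaling none of the 4 was called (Ppargc1b -0.92, adjusted p = 0.067), and the Got1 start-site peak alone was (0.74, adjusted p = 0.016). For microglia no test of such differences was made. The microglial effect minus the NeuN+ effect was 2.79 at Esrra and 1.87 at Tfam. Its median was 0.60 over common peaks and 0.84 over the start-site peaks among them. At Esrra and Tfam the 2 SgshKO libraries lay above WT in microglia and below WT in NeuN+ nuclei. Of all start-site peaks, 32.7% lay so above in microglia and 70.9% so below in NeuN+ nuclei.

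Across the 12 libraries, the common start-site peaks whose log2 tags were most like those of Esrra belonged to Med16 (Pearson r = 0.98) and Pdk1 (r = 0.98) of 10266 start-site peaks. Pdk1 held 147 and 139 tags in WT microglia and 460 and 619 in SgshKO, and Med16 126 and 123 against 335 and 488. In NeuN+ nuclei the same peaks were lower in both SgshKO libraries, Pdk1 going from 196 and 178 to 106 and 118. Within the group the likeness to Esrra was highest at Tfam (r = 0.88), followed by Got2 (0.60), Got1 (0.49), Nrf1 (0.43) and Ppargc1b (0.31). These correlations describe 12 libraries in 6 groups that share depth and preparation within a sort.

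**Figure D5:**
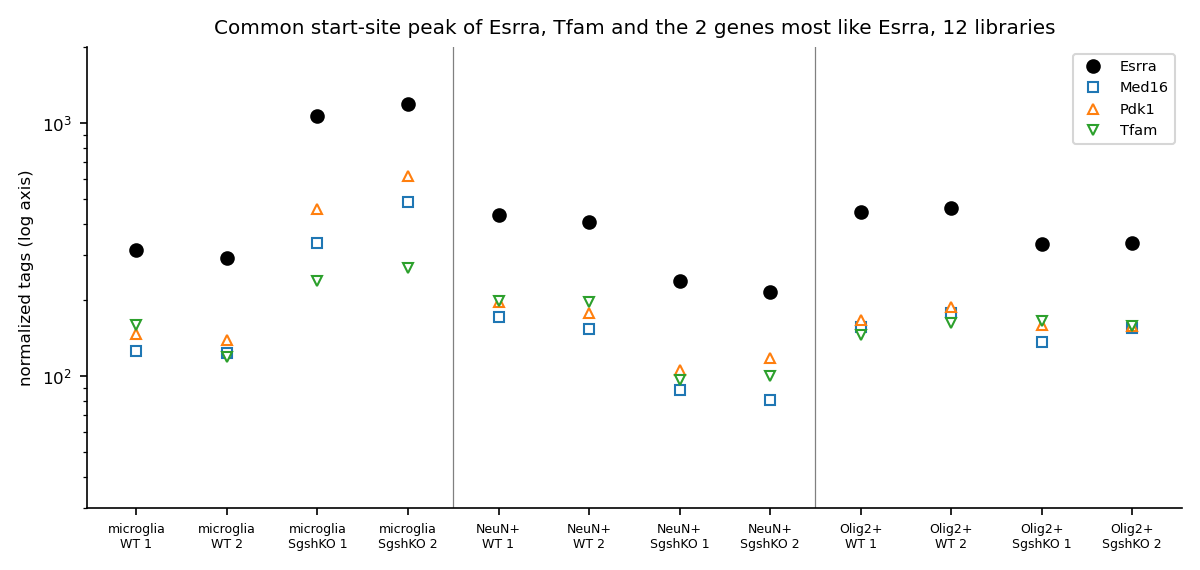
Normalized tags (log axis) in the common start-site peak of Esrra, of Tfam and of the 2 genes most like Esrra in each of the 12 libraries, by sort. All 4 are highest in the SgshKO microglia libraries and lowest in the SgshKO NeuN+ libraries.

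A further 40 genes of the pathway were counted: receptors and coregulators, mitochondrial DNA factors, shuttle enzymes, uncoupling protein relatives and partners of cytochrome c. Of their start-site peaks, 3 of 55 were past the threshold higher and none lower in microglia, where 8.59% and 1.2% of all start-site peaks were. In NeuN+ nuclei 1 of 63 was called higher and 27 lower, beside 1.74% and 44.9% of all start-site peaks. In Olig2+ nuclei 8 of 50 were called higher and 4 lower, beside 12.7% and 7.56%. In the nuclei the counts lay near those shares, and nothing is read from the microglial count. The median log2 changes of these start-site peaks were 0.15 in microglia, -0.54 in NeuN+ and -0.01 in Olig2+ nuclei. Over all start-site peaks they were 0.03, -0.53 and 0.05. The genes named here were chosen after their values were seen. The 3 microglial peaks were those of Ppard, a receptor related to Ppara (159 ± 9.50 to 385 ± 65.9 tags, log2 change 1.26), Tfb2m, the mitochondrial transcription factor that acts beside Tfam (263 ± 6.12 to 477 ± 105, log2 change 0.84), and the zinc-finger factor Yy1 (22.3 ± 3.95 to 68.2 ± 24.3, log2 change 1.54; SD, n = 2 throughout). As for the group itself, the microglial values are a description. In NeuN+ nuclei Tfb2m fell from 247 ± 3.32 to 132 ± 4.12 tags (log2 change -0.90, adjusted p = 3.4e-06), and in Olig2+ nuclei from 404 ± 6.25 to 345 ± 3.22 (log2 change -0.23, adjusted p = 0.020). The mitochondrial DNA factors had 6 of 14 start-site peaks called in NeuN+ nuclei, all lower, beside the 44.9% of all NeuN+ start-site peaks called lower, among them the DNA polymerase gene Polg (log2 change -0.66) and the helicase gene Twnk (-0.80). In Olig2+ nuclei the 8 called increases included those of the retinoid X receptor genes Rxrb (log2 change 0.69, adjusted p = 6.0e-06) and Rxra (0.51, adjusted p = 0.018), which encode the dimer partners of the PPAR receptors. No peak of the uncoupling protein relatives was called in either nuclei sort.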

How the data were processed

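ATAC-seq was deposited as 1 annotated peak table per sort, with 4 libraries each and peaks merged over them. Per the file headers, the deposited values are a signal: HOMER tag counts per peak, normalized by the authors to 10000000 tags per library. Alignment with Bowtie2, HOMER and the build mm10 are per the submitters' processing notes, with no versions given. How multiply mapped reads were treated is not given in the sources used here. All deposited values came out as whole reads at the stated library totals (100% within 0.01). The members and gene lists were chosen with earlier results of these data known.

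Genotypes were compared with limma 3.58.1 in R 4.3.3 on log2(normalized tags + 1), over all peaks of a table, with Benjamini-Hochberg adjustment over the whole table and a call at an adjusted p under 0.05. Sorts and differences of effects came from 1 fit of all 6 groups over peaks with 50% reciprocal overlap. The script was tested on simulated data. Alternatives were pseudocounts of 0.5 and 5, a filter on the lowest 25% of peaks, 3 other scalings, edgeR 4.0.16 and DESeq2 1.42.0 on the recovered reads, a replicate block, and each library left out. Left-out fits have 1 library in an arm, assumed to vary like the others. Peaks were named by rule: for each gene and sort, the start-site peak nearest the start site, the distal peak with the widest change among those of at least median level, called peaks and the common peaks; further peaks and the pathway genes named were chosen after their values were seen. Motifs were searched in 250 RefSeq bases (GRCm38.p6) upstream of each start site; no peak sequence was used. One further gene with a start-site pattern like that of Esrra is not reported here.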

Additional observations from a re-analysis of the deposited data

Results flagged for a closer look

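At 4 peaks the test of the difference between the genotype effects in NeuN+ and Olig2+ nuclei passed its threshold. The log2 difference was -1.07 at Tfam, -1.50 at Ppargc1b, -0.78 at Nrf1 and -0.45 at Esrra. The median was -0.50 over all common peaks and -0.63 over the start-site peaks among them.

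At some peaks both SgshKO libraries of one sort lay above both WT libraries while both of another sort lay below, and the difference was not tested. Such separation was frequent. Over all start-site peaks both SgshKO libraries lay above WT at 32.7% in microglia, and below WT at 70.9% in NeuN+ and 26.2% in Olig2+ nuclei. The microglial effect minus the NeuN+ effect was 2.79 at Esrra, 1.87 at Tfam, 0.82 at Got2 (-102 bp), 0.72 at Nrf1 and 0.71 at Got1 (-89 bp). The median of that difference was 0.60 over all common peaks and 0.84 over the start-site peaks among them. The Got2, Nrf1 and Got1 values lay below the latter. The microglial effect minus the Olig2+ effect was 2.33 at Esrra and 0.86 at Got1 (-89 bp). Its median was 0.17 over all common peaks and 0.26 over the start-site peaks among them.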

How the results depend on the processing

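The number of the group's peaks past the threshold in microglia, from which nothing is read, was 5, and 9 with in-peak scaling, quantile normalization or edgeR, and 2 to 13 with a library left out. In NeuN+ nuclei 21 calls became 12 after quantile normalization, 3 with DESeq2 and 0 to 9 with a library left out. In Olig2+ nuclei 9 became 5 with median-of-ratios scaling, 2 with DESeq2 (14 of 28 peaks given an adjusted p) and 1 to 7 with a library left out. Between sorts, leaving out a library gave 2 to 5 calls for microglia against NeuN+ nuclei, 5 to 7 for microglia against Olig2+ nuclei and 2 to 6 for NeuN+ against Olig2+ nuclei. The count of 4 called differences between NeuN+ and Olig2+ effects became 1 with common-peak scaling, 2 with median-of-ratios scaling and 2 with quantile normalization. With common-peak scaling none of the 4 was kept, and the 1 call was Got1 at -89 bp in the other direction (0.74, adjusted p = 0.016). With each of the other 2 scalings 1 call was higher and 1 lower. The cause of these shifts was not tested.

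Some values changed sign. In NeuN+ nuclei Nrf1 at 53 bp was 0.17 after quantile normalization. Got1 at -14 bp was 0.16 (in-peak), 0.082 (median-of-ratios), 0.44 (quantile), 0.086 (edgeR) and 0.083 (DESeq2). With a library left out, Ucp2 at 2556 bp ranged from -0.27 to 0.35 and Cycs at 378 bp from -0.029 to 0.090, and in Olig2+ nuclei Tfam at -91 bp from -0.0042 to 0.14 and Got2 at -80 bp from -0.28 to 0.10. For WT NeuN+ minus WT Olig2+, Esrra was 0.18 (common-peak), 0.033 (median-of-ratios) and 0.45 (quantile), Got1 at -89 bp 0.0066 (common-peak) and 0.15 (quantile), and Nrf1 0.077 (common-peak) and 0.078 (quantile). For WT microglia minus WT NeuN+, Got2 at -102 bp was -0.13, -0.21 and -0.23 and Got2 at 536 bp -0.065, -0.14 and -0.24 under the same 3 scalings, and Nrf1 ranged from -0.25 to 0.11 with a library left out. For WT microglia minus WT Olig2+, Got2 at -26782 bp was -0.18 (quantile) and Tfam ranged from -0.37 to 0.051 with a library left out. For the NeuN+ minus Olig2+ effect, Esrra was 0.13, 0.00021 and 0.16 under the 3 scalings, Got2 at -102 bp 0.077 (common-peak), and Got1 at -5735 bp -0.027 (pseudocount of 5) and -0.078 to 0.30 with a library left out.

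Deviations of libraries with equal replicate numbers correlated at 0.042 for microglia, 0.0036 for NeuN+ and 0.00069 for Olig2+ nuclei. These values showed no pairing by number but cannot exclude a shared animal, litter or day, on which the labels are silent. With a replicate block 8 peaks were called for microglia, 24 for NeuN+ and 9 for Olig2+ nuclei, and 5, 6, 4 and 4 in the 3 sort comparisons and the effect difference. With 2 libraries per group and weak distal peaks of few reads, small differences were not detectable.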
